A study of Mus musculus with 32 samples.

Results

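The 8 genes described here are the mouse 2′-5′-oligoadenylate synthetase (Oas) genes Oas1a, Oas1b, Oas1c, Oas1g, Oas2 and Oas3 and the Oas-like genes Oasl1 and Oasl2. They were taken by symbol from 23035 genes with footprint counts and 39017 genes with total RNA counts, and all 8 were found in both kinds of table. The measurements are Ribo-Seq of neural stem cells (NSCs) of the ventricular-subventricular zone, grown ex vivo with EGF and FGF from male C57BL/6 mice of 8 to 12 weeks. Cultures received IFN-β or its vehicle, bovine serum albumin in PBS, for 2 h or 14 h, and cycloheximide before lysis. Each of the 4 groups held 4 cultures of different mice, and each lysate gave 1 library of ribosome-protected fragments in the coding sequence (footprints) and 1 of total RNA. Replicates carry the numbers 2, 3, 5 and 6 at 2 h and 1 to 4 at 14 h, and the labels do not say whether the numbers 2 and 3, which occur at both times, stand for the same mice. The cells are expanded progenitors in growth factor medium without niche cells or virus, and a single dose of IFN-β was used.

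Interferon-induced Oas proteins sense double-stranded RNA and, once bound to it, join ATP into 2′-5′-linked oligoadenylates (2-5A). The 2-5A acts as a second messenger of the antiviral response and is degraded by phosphodiesterases. Oasl proteins carry ubiquitin-like domains behind an Oas-like part. Oasl1 makes no 2-5A and is known as a repressor of the translation of Irf7 mRNA, while mouse Oasl2 retains synthetase activity. Transcription of the family is driven by ISGF3, a complex with Stat2 and Irf9 that assembles below the type I interferon receptor and binds the interferon-stimulated response element (ISRE).

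All 8 genes lie on chromosome 5 of mm10 in 2 groups that are 5.79 Mb apart. Oasl2 (chr5:114896936-114912234) and Oasl1 (chr5:114923240-114937915) lie on the plus strand. The Oas group holds Oas2 (chr5:120730333-120749853), Oas3 (chr5:120753098-120777661), Oas1c (chr5:120800194-120812514), Oas1g (chr5:120876142-120887613) and Oas1a (chr5:120896256-120907521) on the minus strand. Between them Oas1b (chr5:120812635-120824163) runs on the plus strand and starts 121 bp from the start of Oas1c. The annotation gives 3 members a gene that overlaps them on the opposite strand, with 227 exon bases shared for Oas1c, 38 for Oasl1 and 0 for Oas2, and the strand setting of the counting is not given in the sources used here.

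Sequence upstream of the start sites was taken from RefSeq on GRCm38.p6, where 6 of the 8 members are listed with 250 bases before and 50 after the start. The following stretches end before the start site and show where the core of the ISRE, searched as GAAANNGAAA on both strands, was found. Capitals mark these letters, overlapping matches included.
Oas1a, chr5:120907526-120907585, minus strand: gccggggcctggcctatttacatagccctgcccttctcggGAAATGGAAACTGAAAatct
Oas1g, chr5:120887614-120887673, minus strand: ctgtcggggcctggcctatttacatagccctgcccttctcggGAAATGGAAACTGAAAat
Oas1c, chr5:120812575-120812634, minus strand: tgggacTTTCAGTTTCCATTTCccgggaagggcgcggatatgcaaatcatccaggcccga
Oas3, chr5:120777690-120777749, minus strand: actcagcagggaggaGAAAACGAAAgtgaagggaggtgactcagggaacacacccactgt
Oasl1, chr5:114923180-114923239, plus strand: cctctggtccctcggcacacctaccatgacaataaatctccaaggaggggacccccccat
Oasl2, chr5:114896874-114896933, plus strand: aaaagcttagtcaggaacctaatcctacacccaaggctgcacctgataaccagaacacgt

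The core was present in 4 of the 6 listed members and in 3.44% of 32851 promoters of the same length. Oas1a held 2 overlapping matches at positions -20 and -14 from the start and Oas1g the same 2 at -18 and -12, and the promoters of this pair were identical at 122 of 150 positions (81.3%). In Oas1c the 2 matches lay on the opposite strand. Read from Oas1b, whose annotated start directly follows this stretch, the letters sit 7 to 22 bases before the start and face Oas1b. Oas3 held 1 match at position -75. Oasl1 and Oasl2 had none in the 300 bases, which says only that these letters are not in this window. The gamma-activated site, searched as TTCNNNGAA, was found in Oas1a alone of the 6 and in 8.3% of all promoters. Of the other Oas1 paralogues the table lists Oas1f and Oas1h, and neither held the core.

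The coding sequence of Oas1b is annotated as a polymorphic pseudogene of 376 codons, and its first in-frame stop is codon 253, so that 32.7% of the codons lie behind it. This stretch of Oas1b, chr5:120821293-120821325 on the plus strand of mm10 within the annotated coding sequence, shows the stop codon in capitals: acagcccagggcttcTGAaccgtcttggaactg. Truncation of Oas1b in laboratory strains is known to go with susceptibility to flaviviruses. The footprint table gives 1 count per gene and not the position of footprints before or behind this stop.

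Near-identical paralogues share reads. Of all 30-base windows of the Oas1a coding sequence 61.6% occurred without a mismatch in another gene, nearly all of them in Oas1g, and 62.4% of the Oas1g windows occurred elsewhere, mostly in Oas1a. With up to 2 mismatches the shares within the family rose to 90.2% and 93.1%. Values of Oas1a and Oas1g are therefore uncertain as single genes, and their sum does not depend on how reads were split between them. Without a mismatch Oas1c shared 32.5% of windows, above all with Oas1e and hardly with Oas1a (0.1% of the Oas1a windows occurred in Oas1c). Oas1b shared 5.7%, Oasl1 0.3%, and Oas2, Oas3 and Oasl2 none. With up to 2 mismatches the shares within the family were 66.8% for Oas1c and 22.7% for Oas1b. Of the Oas1c windows 9.2% then occurred in Oas1a.

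Total counts ranged from 2956297 to 10505108 in the 16 footprint libraries and from 1370008 to 7877753 in the 16 total RNA libraries. The 9 NSC markers were all detected in footprints of every group, with a summed level of 10551 to 17954 CPM (counts scaled to a common library size of 1e6 by TMM). Of 7 microglia and leukocyte markers, Aif1, Cx3cr1 and C1qa had no footprint in any library, and Tmem119, C1qb and Ptprc had at most 2 per group. The seventh, P2ry12, which lies opposite Med12l, rose at 14 h with IFN-β from 251 to 586 footprints over the group (log2 fold change 1.62, adjusted p = 5.84e-07, edgeR), and with it the summed level of this list (20.7 to 26 CPM with IFN-β and 5.57 to 8.43 with vehicle at 14 h, 1.02 to 2.98 and 0.559 to 4.36 at 2 h). Markers of oligodendrocytes reached 19.4 CPM at most, those of endothelial cells 0.429 CPM and those of neuroblasts 44.3 to 110 CPM. Of the NSC markers 5 of 9 were called lower at 14 h, as were 26.3% of all genes. They fell by 0.36 to 1.13 on the log2 scale, Slc1a3 and Prom1 among them. At 2 h 1 of 9 was called lower, beside 243 of the 12104 genes tested. The part of these changes in the Oas values was not tested.

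Without IFN-β the family was at the edge of detection. The 8 genes together had 18 to 26 footprints per vehicle library at 2 h and 6 to 8 at 14 h, or 2.81 ± 0.472 and 0.851 ± 0.172 CPM (SD, n = 4). With IFN-β the sum rose to 1159 to 2383 footprints at 2 h (300.2 ± 129 CPM) and to 4772 to 17927 at 14 h (1814 ± 147 CPM). The groups with and without IFN-β did not overlap at either time. As in all bulk samples, more cells that translate these mRNAs and more footprints per cell cannot be told apart. At 14 h every IFN-β library lay above every vehicle library for 8 of 8 members, where 17.6% of all genes with a count did so, and at 2 h for 7 of 8 members, where 6.3% did. All 8 members belong to the genes that the study ranked as interferon-responsive on RNA of such cultures, so their direction is not independent evidence.

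**Figure D1:**
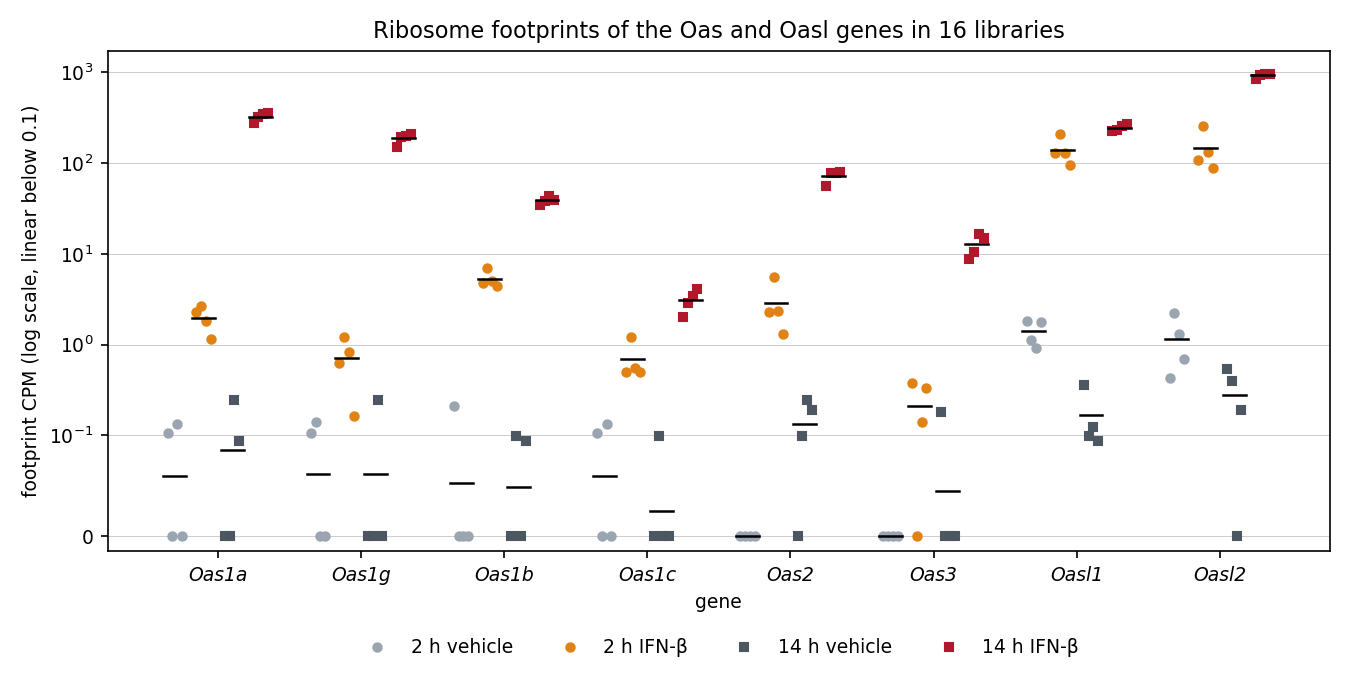
Footprint CPM of each member (x axis) in each of 16 libraries, on an axis that is logarithmic above 0.1 CPM and linear below, with circles for 2 h, squares for 14 h, grey for vehicle and colour for IFN-β, and bars at the mean of 4 libraries. Oasl1 and Oasl2 lie between 89.2 and 258 CPM at 2 h with IFN-β, where Oas3 and Oas1g lie at or below 1.23 CPM, and at 14 h Oas1c is the lowest with a mean of 3.09 CPM.

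After 2 h of IFN-β, footprints were found mainly on the Oas-like genes. Oasl1, the repressor of Irf7 translation, had 1020, 1032, 926 and 573 footprints with IFN-β and 17, 8, 7 and 13 with vehicle, in the order of the replicates 2, 3, 5 and 6. The lowest treated library thus held 573 footprints and the highest control 17. Its log2 fold change was 6.61 ± 0.327 (SE, adjusted p = 2.49e-06, quasi-likelihood test of edgeR, Benjamini-Hochberg adjusted over 12104 genes, as for all adjusted p-values of footprints at 2 h). Oasl2, the active synthetase with ubiquitin-like domains, had 854, 1265, 963 and 538 against 4, 16, 10 and 5 footprints. Its log2 fold change was 7.01 ± 0.515 (adjusted p = 2.83e-05). Both genes were thus at a similar height after 2 h, with 141 ± 49.2 CPM for Oasl1 and 147 ± 76.2 CPM for Oasl2.

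The Oas genes proper had far fewer footprints at 2 h. Oas1b, the gene with the internal stop codon, had the most of them, 38, 34, 36 and 27 with IFN-β against 2, 0, 0 and 0 with vehicle. That is a ratio of 81.4 with a counting interval of 22.1 to 679 (95%), and edgeR gave an adjusted p of 0.000112. Oas2, whose protein joins several Oas units in a chain as that of Oas3 does, had 18, 27, 17 and 8 footprints against none in 4 vehicle libraries, at least 28.1-fold higher when the 4 controls together are set to 3 counts. The treated libraries of both genes lay clearly above the controls.

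Oas1a had 18, 13, 13 and 7 footprints with IFN-β against 1, 0, 1 and 0, and Oas1g 5, 6, 6 and 1 against 1, 1, 0 and 0. The ratios were 30.8 (counting interval 8.09 to 261) for Oas1a and 10.9 (2.6 to 96.5) for Oas1g. Oas1c, an Oas1 paralogue beside Oas1b, had 4, 6, 4 and 3 against 1, 0, 1 and 0, a ratio of 10.3 (2.43 to 91.5). Oas3, the longest synthetase of the family, had 3, 0, 1 and 2 footprints against none, and its groups overlapped at 0. The IFN-β groups of Oas1a, Oas1g and Oas1c lay above their controls by few counts, and the change of Oas3 was not detectable at this depth.

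Of the 8 members, 3 passed the filter of at least 10 counts in at least 4 libraries at 2 h (Oas1b, Oasl1, Oasl2), and all 3 were called higher, as were 5.25% of the genes tested. No member had 10 counts in more than 2 vehicle libraries, so those that passed did so through the IFN-β libraries and had to differ. Without the filter Oas1a, Oas2 and Oas1c were called as well, and Oas1g and Oas3 were not. IFN-β replicate 3 gave the highest CPM of its group for 7 of 8 members (Oasl2 258 against 89.2 to 134 CPM in the others), and without it the log2 fold change of Oasl2 was 6.6.

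After 14 h all members of the family carried footprints. Oasl2 reached 2524, 6586, 6496 and 8895 footprints with IFN-β in the replicates 1 to 4, against 3, 4, 0 and 2 with vehicle. Its level of 927 ± 53.4 CPM was the highest of the family, with a log2 fold change of 11.69 ± 0.169 (adjusted p = 1.51e-14, edgeR over 12113 genes, as for all adjusted p-values of footprints at 14 h). Oasl1 reached 673, 1636, 1731 and 2492 against 2, 1, 1 and 1 (log2 fold change 10.56 ± 0.161, adjusted p = 2.34e-14). The ratios of counts per depth were 3577 (counting interval 1884 to 7824) for Oasl2 and 1717 (735 to 5289) for Oasl1.

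Oas1a and Oas1g, whose proteins are active synthetases, went from single footprints to at least 446 per library. Oas1a had 826, 2272, 2331 and 3321 against 0, 0, 2 and 1 (adjusted p = 7.02e-14), a ratio of 3833 with a counting interval of 1311 to 18589. Oas1g had 446, 1365, 1335 and 1940 against 0, 0, 2 and 0 (adjusted p = 7.86e-13), a ratio of 3342 (925 to 27601). Since the coding sequences of this pair share most windows, neither ratio stands for a single gene.

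Among the other Oas genes Oas2 had 167, 548, 530 and 736 footprints against 0, 1, 2 and 2 (log2 fold change 8.83 ± 0.243, adjusted p = 4.12e-12). Oas1b had 104, 267, 290 and 364 against 0, 1, 0 and 1 (ratio 673, counting interval 186 to 5569, adjusted p = 2.95e-12). Oas3 had 26, 74, 113 and 141 against 1, 0, 0 and 0 (ratio 465, 83 to 18425, adjusted p = 1.91e-08). No control library of these genes held more than 2 footprints.

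Oas1c had the fewest footprints of the members at 14 h, with 6, 20, 23 and 38 footprints against 0, 1, 0 and 0, a ratio of 114 (20 to 4567). It missed the filter by 1 library. The other 7 members passed, again through the IFN-β libraries, and all 7 were called higher, as were 26.2% of the genes tested. IFN-β replicate 1, the footprint library with the fewest counts, gave the lowest CPM of its group for 8 of 8 members. Without it the 7 calls stood, and leaving out any other library of 14 h left 7 calls too.

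The order of the levels can be compared between genes only per length of coding sequence. With IFN-β at 2 h, Oasl2 (96.6 ± 49.9 footprint CPM per kb, SD, n = 4) and Oasl1 (91.9 ± 32.1) overlapped each other and stood above all other members. Oas1b followed with 4.71 ± 0.986 and did not overlap Oas1a (1.79 ± 0.584) below it. From Oas1a over Oas2 (1.23 ± 0.784) and Oas1c (0.641 ± 0.326) to Oas1g (0.624 ± 0.385) each gene overlapped its neighbour, and Oas3 was last with 0.062 ± 0.0512.

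At 14 h the order was another. Oasl2 stood alone with 607 ± 35 CPM per kb, and Oas1a came next with 296 ± 31.7. Oas1g (164 ± 22.6) and Oasl1 (160 ± 12.5) overlapped each other, as did Oas1b (34.4 ± 2.93) and Oas2 (31.3 ± 4.85). Oas3 (3.73 ± 1.1) and Oas1c (2.85 ± 0.803) came last and overlapped. Oasl1 thus stood in the second place at 2 h and the fourth at 14 h, while Oas1g moved from the seventh to the third.

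**Figure D2:**
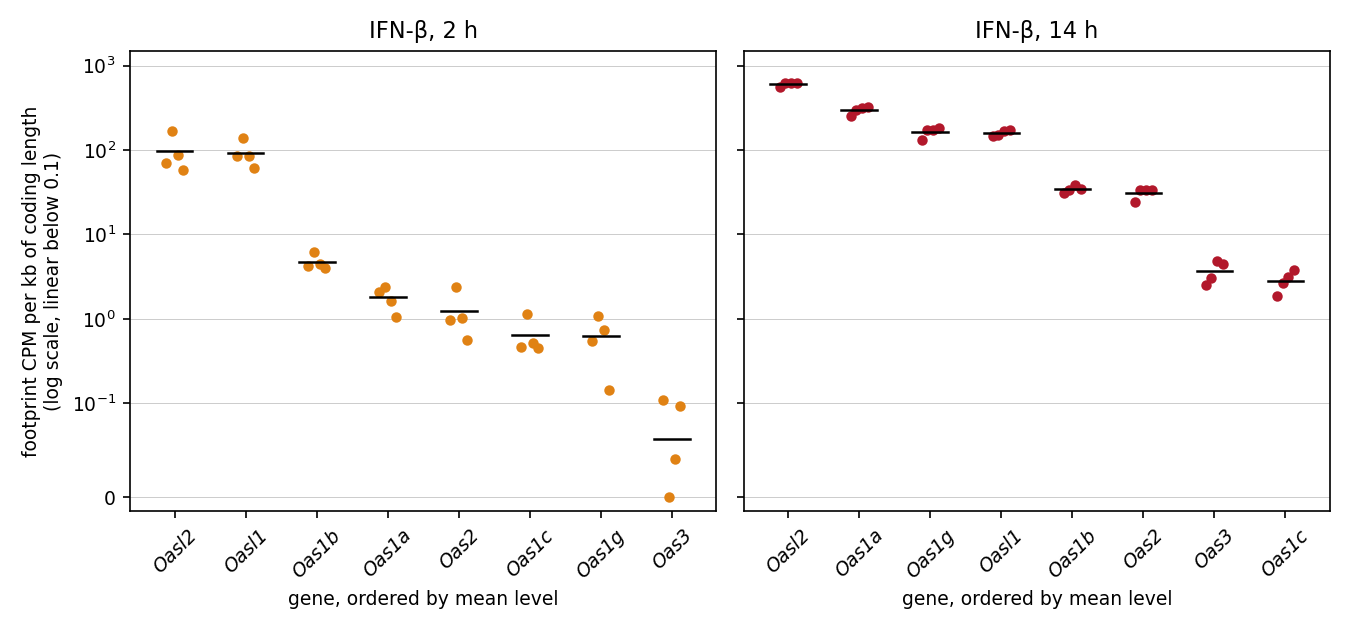
Footprint CPM per kb of coding length (y axis, logarithmic above 0.1 and linear below) of the members in the 4 IFN-β libraries of 2 h (left) and of 14 h (right), ordered by the mean, which is the black bar. Oasl2 and Oasl1 lead at 2 h with means of 96.6 and 91.9, and Oasl2 and Oas1a lead at 14 h with 607 and 296.

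The make-up of the family changed accordingly. Oasl1 and Oasl2 together took 95.3 ± 0.46% of the summed level per kb at 2 h with IFN-β and 59.1 ± 1.54% at 14 h (SD, n = 4). Oas1a and Oas1g together took 1.24 ± 0.287% at 2 h and 35.3 ± 1.33% at 14 h. Oasl2 kept a similar share, 47.8 ± 4.08% and 46.8 ± 1.39%, whereas that of Oasl1 went from 47.5 ± 3.62% to 12.4 ± 0.526%. Within a library the log2 ratio of Oasl2 over Oasl1 was 0.01 ± 0.233 at 2 h and 1.92 ± 0.071 at 14 h. The log2 ratio of Oas1a plus Oas1g over Oasl1 was -5.29 ± 0.296 at 2 h and 1.51 ± 0.098 at 14 h. For both of these 2 ratios the exact permutation test gave p = 0.0286, two-sided, which is the smallest value that 4 libraries against 4 can give. The ratios were chosen after their values were seen, and the part of the cultures, which only in part carry the same numbers at both times, was not tested.

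**Figure D3:**
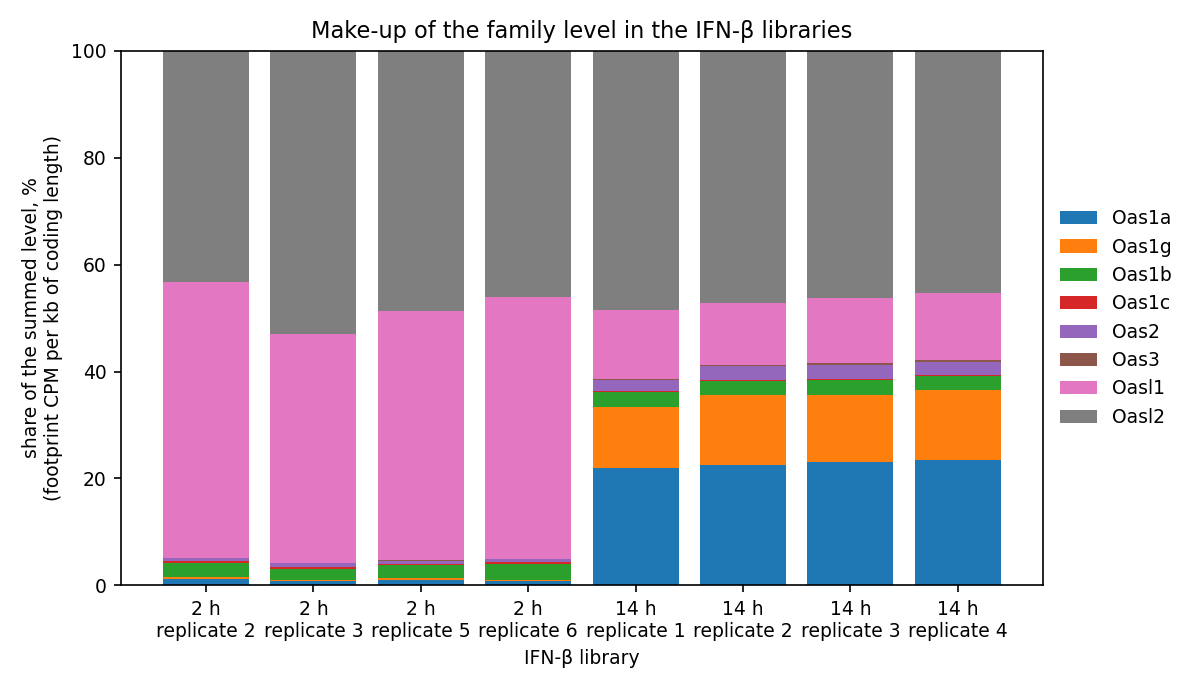
Share in percent (y axis) that each member took of the summed footprint CPM per kb in each of the 8 IFN-β libraries (x axis). Oasl1 and Oasl2 fill 94.8% to 95.9% of each 2 h library, and Oas1a and Oas1g together 33.4% to 36.6% of each 14 h library.

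Between the IFN-β libraries of both times, a comparison added after the data were seen, the members differed widely. The counts of Oas1a were 171 times higher at 14 h than at 2 h (95% counting interval 130.2 to 230) and those of Oas1g 282 times (178 to 477). Oas3 was 58.9 times higher (26.8 to 162), Oas2 28.3 times (22.3 to 36.4), Oas1b 7.59 times (6.33 to 9.14), Oasl2 6.76 times (6.53 to 7.0) and Oas1c 5.11 times (3.02 to 9.17). Oasl1 was 1.84 times higher (1.76 to 1.91), the smallest difference among the members. In edgeR all 7 members tested were called higher at 14 h, as were 25.4% of all genes, with an adjusted p of 0.000991 for Oasl1 and of 7e-07 or less for the others. Oas1a, Oas1g, Oas2 and Oas3 had 10 counts in at most 3 of the IFN-β libraries of 2 h and passed the filter only through those of 14 h, so they had to differ. The libraries of both times are only in part of the same replicate numbers, and the part of the cultures in these differences was not tested.

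The response to IFN-β relative to the vehicle of the same time was larger at 14 h for 4 of the 7 members tested, as it was for 15.4% of all genes. These were Oas1a (difference of log2 fold changes 6.99 ± 1.75, adjusted p = 0.00672), Oas1g (8.15 ± 2.14, adjusted p = 0.00907), Oasl1 (3.95 ± 0.691, adjusted p = 0.000466) and Oasl2 (4.68 ± 0.949, adjusted p = 0.00151, all edgeR's interaction of time and treatment). Oas1a and Oas1g passed the filter only through the IFN-β libraries of 14 h, which raise this difference, so their calls are no independent support. The difference of Oasl1 lay more in the controls than in the IFN-β libraries. Per depth its vehicle level was 9.81 times higher at 2 h than at 14 h, and its IFN-β level was 1.84 times higher at 14 h. Oas1b missed the threshold (adjusted p = 0.12), and for Oas2 and Oas3 the controls at 2 h held no footprint, so that only a lower bound of the fold change can be given there.

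The controls of the Oas-like genes also differed between the times. Oasl1 had 45 footprints over the 4 vehicle libraries of 2 h and 5 over those of 14 h, 9.81 times more per depth (95% counting interval 3.91 to 31.7), and the groups did not overlap. Oasl2 had 35 and 9, a ratio of 4.24 (2 to 10.0), with overlap. For Oas1a, Oas1g, Oas1b and Oas1c the vehicle counts of both times lay between 1 and 3 over a group. The calls on Oas1a and Oas1g rested on these single control counts. Without vehicle replicate 2 of 2 h neither was called (adjusted p = 0.0532 and 0.0616), without replicate 5 Oas1a was not (0.0548), and without replicate 3 Oas1g was not (0.0703).

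Of 3 genes known to act on the 2-5A system, Abce1, Pde12 and Akap7, none was called at 2 h (adjusted p = 0.811, 0.488 and 0.24, edgeR), and at 14 h 2 were called lower, as were 26.3% of all genes. Abce1, a ribosome recycling factor, fell by 0.37 ± 0.0553 on the log2 scale at 14 h (adjusted p = 0.000104). Pde12, a phosphodiesterase that degrades 2-5A, fell by 0.33 ± 0.0567 (adjusted p = 0.000321). Akap7, whose protein has a related phosphodiesterase domain, had a log2 fold change of -0.08 ± 0.0912 (adjusted p = 0.484). The smallest log2 fold change of a member tested at 14 h was 8.17 (Oas3).

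The remaining Oas1 paralogues stayed low. Over the 4 IFN-β libraries of 14 h, Oas1d had 17 footprints, Oas1e 11, Oas1f 13 and Oas1h 31, against 0, 0, 1 and 1 with vehicle, and at 2 h none had more than 3 over a group. Oas1h differed from the others in total RNA. It had 36, 50, 75 and 24 total RNA counts with IFN-β at 14 h against 0, 0, 0 and 1 with vehicle (adjusted p = 2.66e-06, edgeR), while its footprints were 2, 12, 10 and 7. Oas1h passed the filter only through the IFN-β libraries and had to differ, and 3.47% of all genes were called higher in total RNA there. Oas1a, with 826 to 3321 footprints in the same cultures, had 5 to 19 total RNA counts.

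A list of 7 genes of nucleic acid sensing and its signalling was tested in footprints. At 2 h 5 of them were called higher, beside 5.25% of all genes (median log2 fold change 2.51 beside -0.015 over all genes). At 14 h 5 were called higher, beside 26.2% of all genes (3.69 beside 0.003). At both times these were Ifih1 and Ddx58, which encode the RNA helicases MDA5 and RIG-I, the kinase gene Eif2ak2 (PKR), the RNA editing enzyme gene Adar and the transcription factor gene Irf7. Irf7, whose mRNA Oasl1 is known to repress, went from 13 to 899 footprints over the group at 2 h and from 7 to 4129 at 14 h. Its total RNA was not called at 2 h (log2 fold change 0.18 ± 0.391, adjusted p = 0.999, edgeR) or at 14 h (0.17 ± 0.285, adjusted p = 0.804). Irf7 lies opposite Phrf1, with 45 exon bases shared. Over the vehicle libraries of 2 h it had 134 total RNA counts beside 13 footprints. Whether these total RNA counts stand for Irf7 mRNA was not tested. Ifih1 went from 29 to 9568 at 14 h (log2 fold change 8.72 ± 0.148) and Ddx58 from 315 to 13230 (5.76 ± 0.0786). The adaptor gene Mavs (log2 fold change -0.02 ± 0.08 at 14 h) and the DNA sensor gene Cgas (0.02 ± 0.237) did not pass.

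Among the genes from the receptor to ISGF3, the footprints of Stat2 and Irf9 rose at both times. The log2 fold change of Stat2 was 4.03 ± 0.172 at 2 h and 4.63 ± 0.0789 at 14 h, and that of Irf9 was 4.49 ± 0.217 and 5.75 ± 0.121. Over the group, Irf9 went from 128 to 2380 footprints at 2 h and from 69 to 2895 at 14 h. The receptor chain gene Ifnar1 (-0.07 ± 0.0699) did not pass at 14 h, while Ifnar2, Jak1 and Tyk2 rose by 0.37 to 0.81 on the log2 scale. In the IFN-β libraries Stat2 was 1.31 times (95% counting interval 1.26 to 1.36) and Irf9 1.22 times (1.15 to 1.28) as high at 14 h as at 2 h, and for both the groups overlapped.

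**Figure D4:**
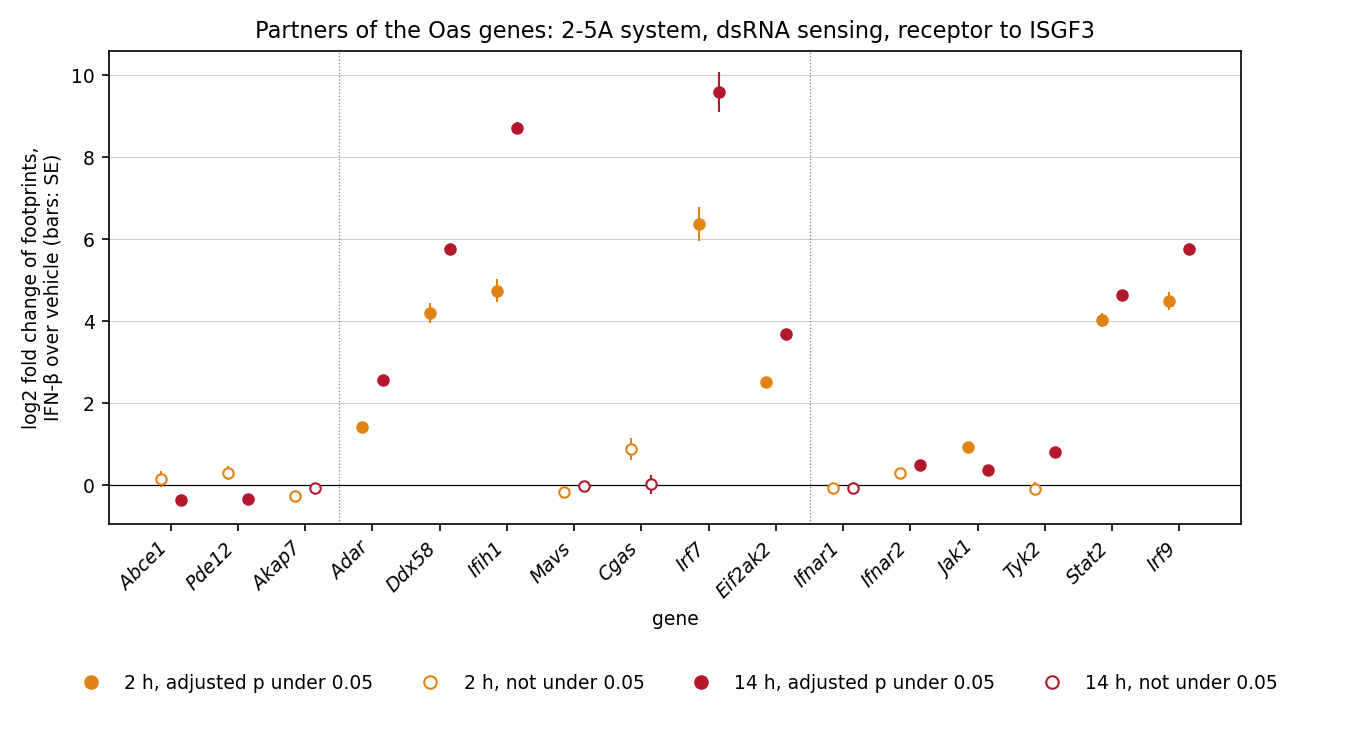
Log2 fold change of footprints, IFN-β over vehicle (y axis, bars are SE), of the partners of the family at 2 h (orange) and 14 h (red), with filled points where the adjusted p of edgeR was under 0.05. Ifih1 (8.72) and Irf7 (9.59) lead at 14 h, Abce1 (-0.37) and Pde12 (-0.33) lie below 0.

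The total RNA libraries hold few counts of these genes, and of NSC genes in general. Vim, an NSC marker with 9251 to 40804 footprints per library at 14 h, had 3 to 12 total RNA counts per library there, and Sox2 had none in any library. The summed level of the NSC markers was 104 to 277 CPM in total RNA and that of the microglia and leukocyte markers 184 to 691 CPM, of which C1qa and Tmem119 were at 0. C1qb was also at 0 except with vehicle at 2 h. Cx3cr1 lies opposite 6 genes with 78 exon bases shared, and P2ry12 lies opposite Med12l. Whether these counts come from microglia or leukocytes was not tested. The part of this makeup of the total RNA in the values was not tested. Of the members, Oasl2 and Oasl1 alone passed the filter. At 2 h, Oasl2 had 91, 97, 92 and 54 total RNA counts with IFN-β against 10, 6, 6 and 11 (log2 fold change 3.14 ± 0.29, adjusted p = 0.000142). Oasl1 had 67, 63, 53 and 32 against 9, 25, 11 and 25 (1.47 ± 0.279, adjusted p = 0.0281). Both were called higher, as were 0.722% of 11639 genes, and the groups did not overlap. The call on Oasl1 was lost in 7 of the 8 fits that left out 1 library (every one except that without IFN-β replicate 6), with adjusted p up to 0.141.

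At 14 h, Oasl2 had 36, 40, 45 and 47 total RNA counts against 2, 2, 0 and 0 and was called (log2 fold change 4.83 ± 0.497, adjusted p = 7.97e-06), as were 3.47% of 7520 genes. Oasl1 had 22, 13, 21 and 11 against 9, 7, 4 and 6 and was not called (0.87 ± 0.345, adjusted p = 0.173). Per depth its groups overlapped, with 4.89 to 8.61 CPM with IFN-β against 2.49 to 5.85 CPM with vehicle. The overlap came from vehicle replicate 3, which had 4 counts, the fewest total counts (1370008) and a TMM factor of 0.499. The other controls had 2.49 to 3.9 CPM. Oasl1 was not called in any of the 8 fits that left out 1 library. Both genes at 14 h, and Oasl2 at 2 h, passed the filter in total RNA only through the IFN-β libraries, so that the calls on Oasl2 are no independent support. Oas1a had 5, 7, 19 and 13 against 0 in all 4 controls, and Oas1g 5, 4, 17 and 11 against 1, 0, 0 and 0. Oas2 went against the direction of its footprints in total RNA, with 1, 0, 3 and 3 counts with IFN-β and 5, 3, 1 and 4 with vehicle, and these groups overlapped. Oas1b, Oas1c and Oas3 had at most 2 total RNA counts in any library of 14 h.

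**Figure D5:**
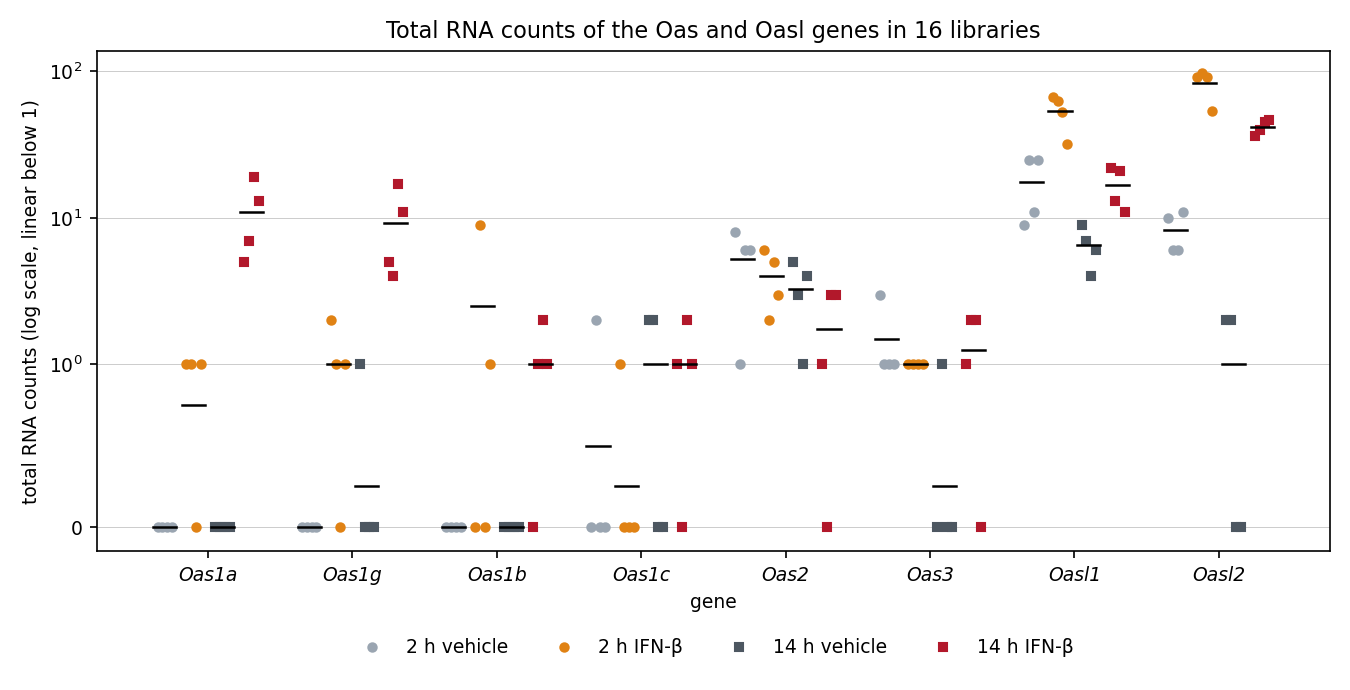
Total RNA counts (y axis, logarithmic above 1 and linear below) of each member in each of 16 libraries, with circles for 2 h, squares for 14 h, grey for vehicle, colour for IFN-β and bars at the mean. Oasl2 with IFN-β lies between 36 and 97 counts, and of the other members only Oasl1 exceeds 20.

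Translation efficiency (TE) was taken as the log2 fold change of footprints minus that of total RNA. It stands for translation per mRNA only as far as the total RNA counts follow the mRNA. Whether they do so for these genes was not tested. It increased at 2 h for Oasl1 (5.19 ± 0.422, adjusted p = 1.36e-06) and Oasl2 (3.88 ± 0.632, adjusted p = 0.00251), 2 of 3 members tested, at the threshold of 0.1 that 0.581% of all genes passed upwards. At 14 h it increased for Oas2 (10.01 ± 0.943, adjusted p = 8.35e-08), Oasl1 (9.52 ± 0.55, adjusted p = 1.84e-11) and Oasl2 (6.69 ± 1.26, adjusted p = 0.00112), 3 of 7 members, beside 4.54% of all genes. Oas1a, Oas1b, Oas1g and Oas3 were not called, and their total RNA controls held 1 count at most over the group. All 7 members passed the filter at 14 h only through IFN-β libraries, and Oas1b, Oas2 and Oas3 through their IFN-β footprints alone. The TE calls at 14 h are therefore no independent support. With DESeq2, which the study used for TE, the Wald test called all 7 and the likelihood ratio test 6. Of the 7 genes listed for nucleic acid sensing TE increased for 2 at 2 h, beside 0.581% of all genes, and for 3 at 14 h, beside 4.54%, and in total RNA they had no call among 4 and 2 tested. The values of TE in the family rest on total RNA counts under 100 in every library, and for Oas2 under 6 at 14 h. The TE of Oas2 at 14 h includes its lower total RNA, 7 counts over the group with IFN-β and 13 with vehicle.

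The genes whose footprints followed the family most closely were Lgals9 (galectin-9), H2-Q4 (an MHC class I gene) and Apol9a (an apolipoprotein L gene). Pearson's r of log2 CPM with the mean of the 8 members over 16 footprint libraries was 0.998, 0.997 and 0.997 among 10314 genes, values that the 4 treatment groups set and that are given as a description. Lgals9 had 0.285 to 0.742 CPM with vehicle and 799 to 909 CPM with IFN-β at 14 h, and 14.3 to 33.9 CPM with IFN-β at 2 h. H2-Q4 had 10.6 to 15.3 CPM with vehicle and 378 to 506 CPM with IFN-β at 14 h, and Apol9a 0 to 0.0997 and 51.2 to 54 CPM. Within the family, r with the mean of the other members was highest for Oas1b (0.989) and Oas2 (0.988) and lowest for Oasl1 (0.869) and Oas3 (0.907).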

How the data were processed

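Footprint and total RNA libraries of NSC cultures were analysed from gene-level raw counts, which the authors deposited. Per the study's methods the authors trimmed reads with Trim Galore 0.4.4, mapped them with Bowtie 0.12.7 to the mm10 transcriptome, removed duplicates and counted footprints in coding sequence and total RNA over the gene. Reads that fit several paralogues may have been placed in any of them. The 8 members and all lists were chosen with earlier results of these data known. A gene was tested where 4 or more libraries of the comparison held 10 counts or more, with edgeR 4.0.16 in R 4.3.3 (quasi-likelihood test, two-sided, TMM, Benjamini-Hochberg over all genes tested, calls at an adjusted p under 0.05, or 0.1 for TE). DESeq2 1.42.0, total counts, other filters, the replicate block and leaving out libraries were alternatives. The fits were tested on simulated data. CPM were computed on TMM-scaled library sizes over each kind of library. In total RNA the TMM factor was 0.435 for vehicle replicate 5 of 2 h and 0.499 for vehicle replicate 3 of 14 h. The other total RNA libraries had 0.971 to 1.33. Ratios of counts carry exact 95% intervals and floors of 3 counts, which cover counting error only. Named genes are the members, those of 3 lists (some of which are not reported here) and the 3 genes most like the members by Pearson's r of log2(CPM + 0.5) with a mean of at least 50 counts. Of the footprint counts 0.695%, and of the total RNA counts 3.8%, lay on identifiers outside the annotation (GENCODE M21), which were kept.

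Footprint samples of the same replicate number deviated together from their group means (r = 0.345 to 0.821 at 2 h and 0.203 to 0.434 at 14 h), so the numbers pair these samples. The main tests had no block. With the replicate block, the same 3 members were called in footprints at 2 h, while the calls over all genes rose from 878 to 3538. For the interaction of time and treatment it called 4 members, and 6944 genes in place of 3867.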

Additional observations from a re-analysis of the deposited data

Results flagged for a closer look

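The response of footprints differed between 14 h and 2 h for 4 members by the interaction test of edgeR: Oas1a (difference of log2 fold changes 6.99, adjusted p = 0.00672), Oas1g (8.15, adjusted p = 0.00907), Oasl1 (3.95, adjusted p = 0.000466) and Oasl2 (4.68, adjusted p = 0.00151). Oas1a and Oas1g passed the filter only through the IFN-β libraries of 14 h, so their calls are no independent support. The difference of Oasl1 lay more in its controls (9.81 times higher at 2 h) than in its IFN-β libraries (1.84 times higher at 14 h).

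Within groups of 4 libraries, 4 values stood far from the others. Oas2 footprints in IFN-β replicate 1 at 14 h were 56.1 CPM beside 78.4 to 78.9 CPM, and Oasl2 footprints in the same library were 847 CPM beside 943 to 962 CPM. This library had the fewest footprint counts, 2956297. Oas1c footprints in IFN-β replicate 3 at 2 h were 1.23 CPM (6 counts) beside 0.497 to 0.558 CPM. Oas1b total RNA in IFN-β replicate 3 at 2 h was 1.43 CPM (9 counts) beside 0 to 0.232 CPM. Chance flags about 1 in 20 groups.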

How the results depend on the processing

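No member changed direction under any alternative, and of the members' values 564 kept their side of the threshold, 8 became called and 13 lost a call. Without the filter, 6 members in place of 3 were called in footprints at 2 h and 3 in place of 1 in total RNA at 14 h. In total RNA at 2 h, 1 member in place of 2 was called with total counts alone (Oasl1, adjusted p = 0.137), and 1 to 2 when 1 library was left out. Of TE at 14 h DESeq2 called 7 members and its likelihood ratio test 6, in place of 3. The interaction of time and treatment called 2 to 4 members with 1 library left out, with 2 without vehicle replicate 2 of 2 h. A filter on a mean of 50 counts left no member in total RNA or TE.

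With the replicate block 1 member in place of 2 was called in total RNA at 2 h (Oasl1, adjusted p = 0.113). There samples of the same replicate number did not deviate together from their group means throughout (r = -0.472 to 0.391), though each shares its lysate with a footprint sample. The block changed no other count of called members.

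Over all genes, total RNA at 2 h gave 93 calls, 169 with DESeq2, 174 without the filter, 44 at a mean of 50 counts and 57 to 103 with 1 library left out. Total RNA at 14 h gave 474, 273 with total counts alone, 247 at a mean of 50 and 279 to 442 with 1 left out. TE at 2 h gave 115, 51 with total counts alone, 267 and 289 with DESeq2, 27 at a mean of 50 and 73 to 156 with 1 left out. TE at 14 h gave 1137, 382 at a mean of 50 and 743 with the block. With total counts alone the share of higher calls in total RNA was 79.8% in place of 90.3% at 2 h and 65.9% in place of 55.1% at 14 h, and the median of all genes moved from 0.04 to 0.229 (total RNA) and from -0.043 to -0.38 (TE) at 2 h. The low total RNA counts of the members limit TE, since 6 members had fewer than 20 counts in each total RNA library.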

Other observations

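Irf9 and Stat2, which belong to the activator of the Oas genes, were unlike in total RNA. At 2 h total RNA rose for Irf9 (6 to 178 counts over the group, log2 fold change 4.58, adjusted p = 0.000134, edgeR), which was not called in TE (adjusted p = 1). Stat2 had 108 and 237 total RNA counts in overlapping groups (log2 fold change 0.92, adjusted p = 0.462), and its TE increased by 3.15 ± 0.367 at 2 h (adjusted p = 6.39e-05) and 4.74 ± 0.311 at 14 h (adjusted p = 1.5e-10). Whether both genes differ in TE was not tested.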
